A study of Mus musculus with 6 samples.

Results

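The vascular endothelial growth factor (VEGF) ligand genes Vegfa, Vegfb and Vegfc, the receptor genes Flt1, Kdr and Flt4, the angiopoietin gene Angpt2, the lymphatic surface protein genes Lyve1 and Pdpn and the nuclear receptor gene Nr2f2 were followed in embryonic mouse lenses in which the transcription factor gene Prox1 was conditionally knocked out, and in wild type lenses. These 10 genes were chosen by name from 41128 listed features, as genes of VEGF signalling and genes linked to Prox1 in lymphatic vessels, and all 10 had enough counts to be tested. RNA-seq libraries came from Prox1 conditional knockout lenses (Prox1 cKO, Prox1 f/f MLR10Cre+) and from wild type C57Bl/6 lenses at E13.5 (embryonic day), with 3 per genotype. Each was made from 1 pool of 30 lenses and is called a pool below. Both genotypes carry the strain label C57Bl/6. MLR10Cre is a Cre transgene active in lens cells, and no pool had the transgene alone or the floxed alleles alone, so effects of Cre and of Prox1 loss cannot be told apart. The labels do not say whether pools shared litters, so p-values reflect only how these samples varied, which may be technical.

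VEGF ligands are secreted proteins that bind receptor tyrosine kinases on endothelial cells and drive the growth of blood and lymphatic vessels. VEGF-A acts through the receptors encoded by Flt1 and Kdr, VEGF-B binds the Flt1 product, and VEGF-C acts mainly through the Flt4 product, which guides lymphatic growth. In lymphatic endothelium Prox1 is the factor that sets cell identity, and it works there with the Nr2f2 product. The lens itself holds no vessels, but in the embryo it secretes VEGF-A and is wrapped by a capillary net, the tunica vasculosa lentis, that later regresses.

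The totals lay between 9082219 and 28391662 counts in the cKO pools and between 20731491 and 21061582 in the wild type pools. Prox1 had 651, 728 and 707 CPM in the cKO pools, against 922, 1215 and 1246 CPM in the wild type pools (counts scaled to the size of the library by the TMM method, as for all levels in CPM here), and fell (log2 -0.70, standard error, SE, 0.141, edgeR adjusted p 0.0074). With totals alone as the scaling, the adjusted p of Prox1 was 0.0530. For the floxed exons the sources used here give no detail. Crystallin genes took 2.83% to 3.14% of the counts in the cKO pools and 13.2% to 22.7% in the wild type pools, with wild type pool 1 lowest. Of 6 lens markers tested, 5 fell and 1, Pax6, rose. Without wild type pool 2 or 3 the calls of Pax6 (edgeR adjusted p 0.116 and 0.0875) and of the marker Foxe3 (0.0619 and 0.0856) were lost. Lars2 and Gm26917, features with ribosomal RNA-like sequence, together took 0.748%, 6.12% and 7.64% of the counts in cKO pools 1, 2 and 3 and 0.957% to 1.90% in the wild type pools. Summed markers of periocular mesenchyme were 1171, 778 and 3536 CPM in cKO pools 1, 2 and 3, against 613, 299 and 569 CPM in the wild type pools. Pigment cell markers summed to 362, 263 and 728 CPM in the cKO pools and to 190, 81.1 and 168 CPM in the wild type pools. Surface ectoderm markers summed to 70.5, 39.1 and 133 CPM in the cKO pools and to 28.7, 9.45 and 20.1 CPM in the wild type pools, with 6 of 6 called higher. Pericyte markers summed to 159, 198 and 260 CPM in the cKO pools and to 139, 123 and 98 CPM in the wild type pools, with 3 of 6 called higher. All 4 lists were detected in every pool and were highest in cKO pool 3. In such pools, fewer cells of a type and less RNA per cell cannot be told apart.

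Vegfa and Angpt2 fell in the cKO lenses and Pdpn and Nr2f2 rose, while the other 6 genes did not pass the threshold of 0.05 for the edgeR adjusted p. The 4 called members of 10 compare with 32.6% of all 14271 features tested (2263 higher and 2396 lower), so the share called was close to that over all features. The cKO and wild type pools did not overlap for 4 of the 10 genes, where 50.1% of all features had no overlap. The median log2 change of the 10 genes was 0.45, and that of all features 0.04. When the pools were scaled by their totals alone, the median over all features shifted by 0.35 on the log2 scale and 85.1% of the called features were higher in the cKO, compared with 48.6% under TMM scaling. With the totals taken without crystallin counts, 61.3% were higher. Totals alone gave 5 called members of 10, all higher in the cKO, close to the 44.6% of all features called on that scaling. They were Pdpn and Nr2f2 again, and Vegfc (log2 0.89, edgeR adjusted p 0.0380), Flt1 (1.02, 0.0207) and Kdr (0.88, 0.0182), while Vegfa and Angpt2 were not called.

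**Figure D1:**
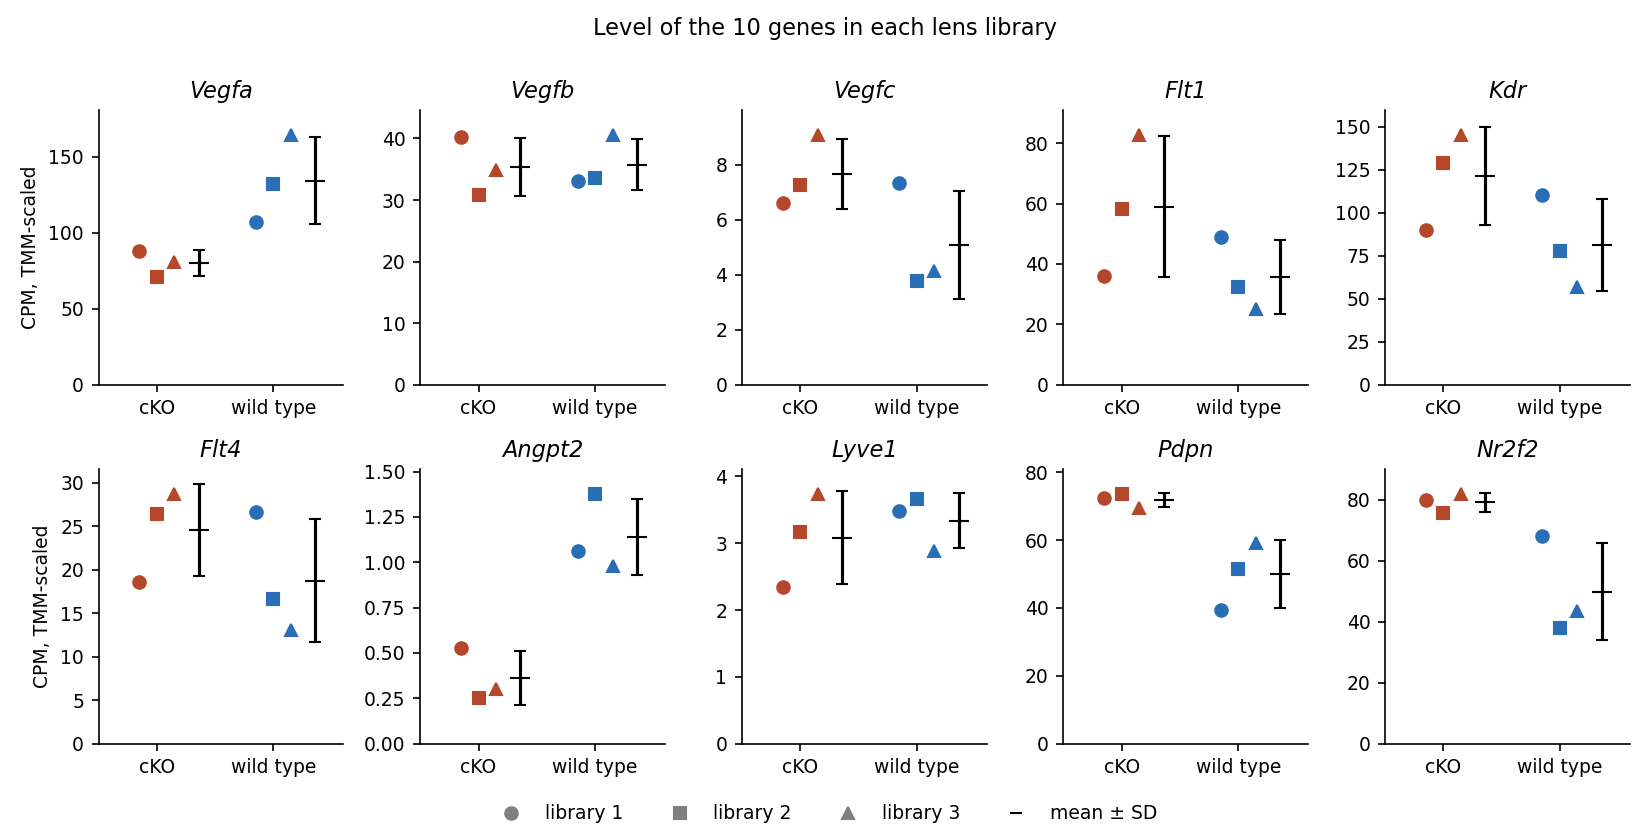
TMM-scaled CPM (vertical axes, starting at 0) of each of the 10 genes in the 3 cKO and the 3 wild type pools, with the mean ± SD beside the points. For Vegfa and Angpt2 every cKO point lies below every wild type point, for Pdpn and Nr2f2 every cKO point lies above, and the groups overlap for the other 6 genes.

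Levels of different genes were set side by side as the authors' deposited RPKM, which divides by a length per gene. The RPKM are scaled to library totals without TMM, so they are compared within a genotype and not between genotypes. Vegfb, for example, had the higher RPKM mean in the cKO but a log2 change of -0.01 under TMM scaling. In the cKO the order by mean was Pdpn (44.6 ± 2.95 RPKM), Vegfb (25.0 ± 4.60), Vegfa (21 ± 3.23), Kdr (18.6 ± 3.56), Nr2f2 (18.4 ± 1.3), Flt1 (5.68 ± 2.04), Vegfc (4.57 ± 0.601), Flt4 (3.34 ± 0.571), Lyve1 (1.33 ± 0.241) and Angpt2 (0.112 ± 0.0524 RPKM; SD, n = 3 each). In the wild type Vegfa was highest at 27.4 ± 3.95 RPKM, above Pdpn at 24.1 ± 2.91 and Vegfb at 19.7 ± 1.81 RPKM. Kdr at 10.1 ± 4.29, Nr2f2 at 9.26 ± 3.90, Flt1 at 2.78 ± 1.23, Vegfc at 2.46 ± 1.2, Flt4 at 2.07 ± 0.982, Lyve1 at 1.14 ± 0.199 and Angpt2 at 0.273 ± 0.0470 RPKM followed in the same order as in the cKO. Neighbours whose ranges overlapped were Vegfb and Vegfa, Vegfa and Kdr, Kdr and Nr2f2, and Flt1 and Vegfc in the cKO. In the wild type they were Vegfa and Pdpn, Kdr and Nr2f2, Flt1 and Vegfc, and Vegfc and Flt4. Lyve1 and Angpt2 were the lowest of the 10 in both genotypes, with no overlap between them.

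**Figure D2:**
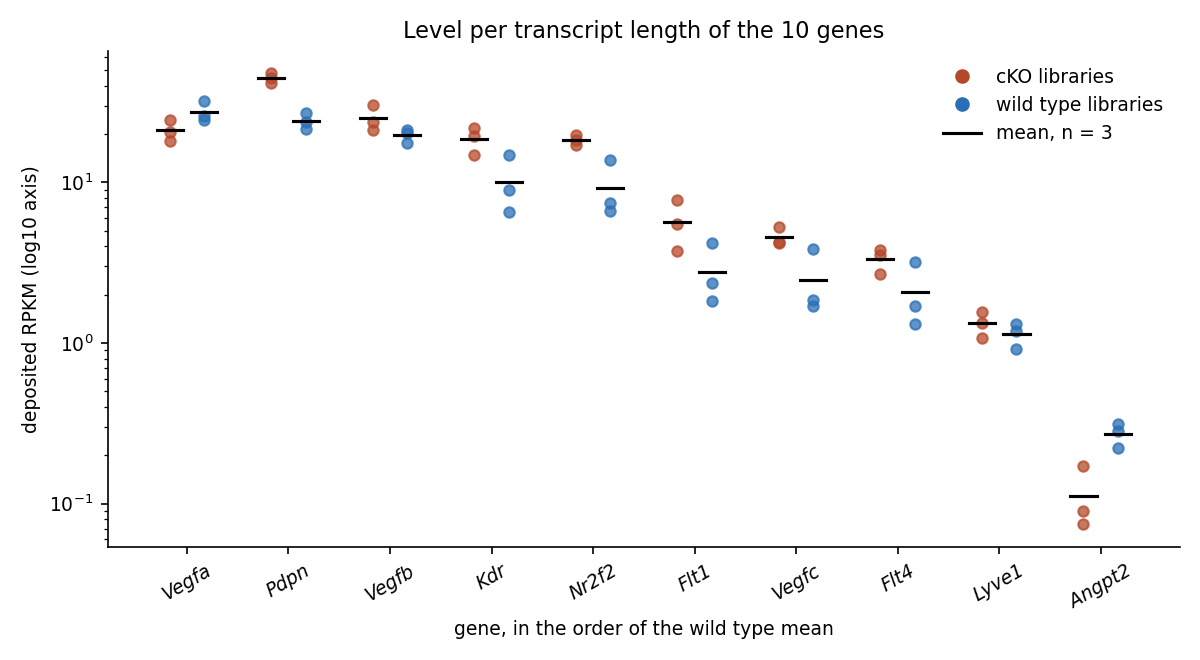
Deposited RPKM (log10 axis) of the 10 genes in each cKO and wild type pool, with black lines at the means (n = 3), ordered by the wild type mean. The values carry no TMM scaling and are to be compared within a genotype. Vegfa, Pdpn and Vegfb have the highest means in both genotypes, although Vegfa was above Kdr in only 1 cKO pool. Angpt2 is last, at 0.112 RPKM in the cKO and 0.273 RPKM in the wild type.

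Among the ligands, Vegfa fell and Vegfb and Vegfc were not called. Vegfa (ENSMUSG00000023951, GRCm38 chromosome 17, 46016993 to 46032369, minus strand) had 87.8, 70.8 and 80.7 CPM in cKO pools 1, 2 and 3, against 107, 132 and 164 CPM in wild type pools 1, 2 and 3. Every cKO pool was below every wild type pool, and wild type pool 1, which also had the smallest share of crystallin counts, was the lowest of its group. The mean was 79.8 ± 8.54 CPM in the cKO and 134 ± 28.7 CPM in wild type lenses (SD, n = 3 each), a fall of 1.68-fold (log2 -0.75, SE 0.159, edgeR adjusted p 0.00916). Whichever pool was left out, Vegfa was called, with a log2 change between -0.93 and -0.61 and an edgeR adjusted p between 0.00199 and 0.0353. With the pools scaled by totals alone, the log2 change was -0.38 and was not called (edgeR adjusted p 0.0617), beside a median of 0.39 over all features on that scaling.

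Vegfb (ENSMUSG00000024962, chromosome 19, 6982473 to 6987651, minus strand), a ligand linked to fatty acid uptake by endothelium, differed by less than the spread between pools. It had 40.3, 30.9 and 34.8 CPM in the cKO pools and 33.1, 33.6 and 40.5 CPM in the wild type pools (log2 -0.01, SE 0.133, edgeR adjusted p 0.959). The sign of that change turned under several settings, among them totals alone (0.35). The ratio of Vegfa to Vegfb within a pool does not depend on the scaling, and was chosen after the values were seen. It was 2.18, 2.29 and 2.32 in the cKO pools, against 3.23, 3.93 and 4.05 in the wild type pools, with no overlap. An exact two-sided permutation test gave p = 0.1, the smallest that 3 pools against 3 allow.

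Vegfc (ENSMUSG00000031520, chromosome 8, 54077606 to 54187096, plus strand), the lymphatic growth factor gene, had 6.61, 7.26 and 9.08 CPM in the cKO pools and 7.34, 3.78 and 4.14 CPM in the wild type pools. Wild type pool 1 lay within the range of the cKO, and the other wild type pools were below it. The change was not called (log2 0.57, SE 0.278, edgeR adjusted p 0.143). Without wild type pool 1 it was 0.89 and was called (edgeR adjusted p 0.0179). The counts behind these values were 225, 87 and 90 in the cKO pools and 152, 66 and 72 in the wild type pools.

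The sequences just upstream of the start sites of 3 called genes are shown, 1 that fell and 2 that rose. They are 250 bases from RefSeq (GRCm38.p6), written 5′ to 3′ on the strand of the gene, and 8 of the 10 members had an entry, with Angpt2 and Lyve1 unmatched. Capitals mark GGGCGG (the GC box) and ACGTG (the core of the hypoxia response element), searched on both strands along with TATAAA (the TATA box), which none of these sequences holds.
Vegfa, chr17:46032378-46032627, minus strand: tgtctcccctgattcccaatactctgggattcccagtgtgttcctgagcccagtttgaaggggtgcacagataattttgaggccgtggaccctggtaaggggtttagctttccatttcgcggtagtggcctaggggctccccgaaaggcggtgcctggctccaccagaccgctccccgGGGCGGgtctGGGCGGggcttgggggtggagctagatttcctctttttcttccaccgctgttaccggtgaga
Pdpn, chr4:143299565-143299814, minus strand: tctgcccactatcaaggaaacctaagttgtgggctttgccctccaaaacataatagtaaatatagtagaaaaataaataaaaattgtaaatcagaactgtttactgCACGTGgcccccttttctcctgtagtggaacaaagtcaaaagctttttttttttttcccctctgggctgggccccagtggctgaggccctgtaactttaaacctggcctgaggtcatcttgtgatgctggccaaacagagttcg
Nr2f2, chr7:70366747-70366996, minus strand: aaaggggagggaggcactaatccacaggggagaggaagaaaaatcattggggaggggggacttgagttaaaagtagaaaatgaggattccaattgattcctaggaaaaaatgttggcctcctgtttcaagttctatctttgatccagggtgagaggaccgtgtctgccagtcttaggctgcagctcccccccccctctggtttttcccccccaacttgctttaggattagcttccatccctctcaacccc
The Vegfa stretch holds GGGCGG in 2 places, 72 and 62 bases before the start site, and no ACGTG. RefSeq gives Vegfa a second start site inside the gene, whose window (chr17:46025164-46025413, not shown) holds ACGTG once, at 211 bases, and GGGCGG once, at 158 bases before that site. In the Pdpn stretch a single CACGTG, 144 bases before the start site, reads as ACGTG on both strands, and there is no GGGCGG. None of the motifs is in the Nr2f2 stretch. Over all 32851 RefSeq windows of this length, 32.7% hold GGGCGG, 16.6% ACGTG and 12.4% TATAAA. A match is a description of letters only. The bases G and C made up 59.2% of the Vegfa stretch, 43.2% of that of Pdpn and 50% of that of Nr2f2, against a median of 52.4% over all windows.

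None of the VEGF receptor genes was called, although all had a higher mean in the cKO. Kdr (ENSMUSG00000062960, chromosome 5, 75932827 to 75978458, minus strand), the main signalling receptor for VEGF-A, had 89.6, 129 and 145 CPM in cKO pools 1, 2 and 3, against 110, 77.4 and 56.6 CPM in wild type pools 1, 2 and 3. Wild type pool 1 was above cKO pool 1. The log2 change was 0.57 (SE 0.249, edgeR adjusted p 0.11), with 121 ± 28.5 CPM in the cKO and 81.3 ± 26.8 CPM in wild type lenses (SD, n = 3 each). Flt1 (ENSMUSG00000029648, chromosome 5, 147561604 to 147726011, minus strand), a receptor that can act as a decoy for VEGF-A, had 36.1, 58.2 and 82.7 CPM in the cKO pools and 49.1, 32.5 and 25.2 CPM in the wild type pools (log2 0.71, SE 0.317, edgeR adjusted p 0.115). Flt4 (ENSMUSG00000020357, chromosome 11, 49609263 to 49652739, plus strand), the VEGF-C receptor gene, had 18.6, 26.4 and 28.6 CPM in the cKO pools and 26.6, 16.6 and 13 CPM in the wild type pools (log2 0.37, SE 0.267, edgeR adjusted p 0.308). In each genotype the receptors were ordered alike, with cKO pool 1 lowest of the cKO and wild type pool 1 highest of the wild type.

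Calls of the receptors depended on the pools used. Without wild type pool 1, Kdr (log2 0.81, edgeR adjusted p 0.0271), Flt1 (0.98, 0.0479) and Flt4 (0.67, 0.0450) were called higher in the cKO. Without cKO pool 1, Flt1 was called (log2 0.98, edgeR adjusted p 0.0316) and Kdr had an adjusted p of 0.0502. DESeq2 also called Flt1 (adjusted p 0.0357) and Kdr (0.0446) with all pools.

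Markers of blood vessel endothelium were read beside the receptors, and some but not all had their order of pools. Pecam1, an adhesion molecule of endothelium, had 57.8, 75.5 and 74.4 CPM in the cKO pools, against 66.7, 47.0 and 31.2 CPM in the wild type pools (log2 0.51, edgeR adjusted p 0.135). Cdh5, the endothelial cadherin gene, had 114, 147 and 141 CPM in the cKO pools and 137, 94.4 and 62.6 CPM in the wild type pools (log2 0.45, edgeR adjusted p 0.19). Of 12 such markers 1, the tight junction gene Cldn5, was called (log2 0.50, edgeR adjusted p 0.0442), and none was listed at 0. Cldn5 and Esam were lowest in cKO pool 3 within the cKO, and Egfl7 and Sox17 had log2 changes of 0.08 and -0.06. The sum over the list was 386, 461 and 473 CPM in cKO pools 1, 2 and 3 and 428, 297 and 235 CPM in wild type pools 1, 2 and 3. Again cKO pool 1 and wild type pool 1 lay inside the range of the other genotype. The numbers called were 9 of 12 without wild type pool 1, and 0 when any of cKO pools 1 and 2 and wild type pools 2 and 3 was left out. Over all features, 36.4% were called without wild type pool 1 (16.4% higher in the cKO), and 15.5% to 31% in the fits that gave 0. The part of the endothelial markers in the receptor levels was not tested.

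The receptors were then expressed as a share of that sum, which does not include them. Kdr amounted to 23.2%, 27.9% and 30.6% of the endothelial sum in the cKO pools and 25.7%, 26.1% and 24.1% in the wild type pools (exact two-sided permutation p = 0.5). For Flt4 the shares were 4.80%, 5.72% and 6.05% in the cKO pools and 6.22%, 5.59% and 5.55% in the wild type pools (exact permutation p = 0.7). For Flt1 they were 9.34%, 12.6% and 17.5% in the cKO pools and 11.5%, 11% and 10.7% in the wild type pools (exact permutation p = 0.6). The wild type shares of Flt1 spanned a narrow range, and the cKO shares a wide one. Within the cKO, the shares of Flt1, Kdr and Flt4 all had the order of the Lars2 and Gm26917 shares given above. The part of Lars2 and Gm26917 in the result was not tested. These ratios were chosen after the values were seen, and a p of this size does not show that the shares were alike.

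**Figure D3:**
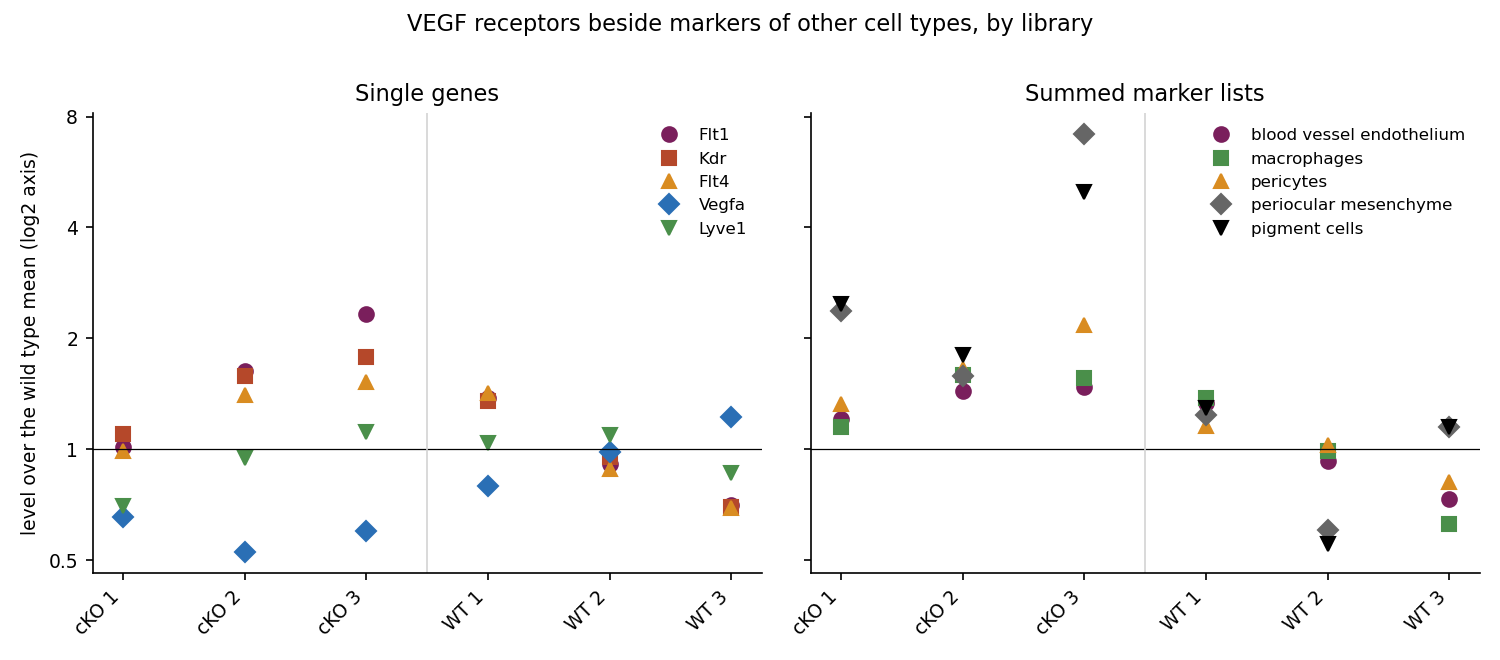
Level in each pool over the mean of the wild type pools (log2 axis), for Flt1, Kdr, Flt4, Vegfa and Lyve1 on the left and for summed marker lists on the right; cKO pools stand left of wild type pools in each panel. The receptors and the endothelial and macrophage sums are lowest in cKO pool 1 within the cKO and highest in wild type pool 1 within the wild type, while Vegfa is below 1 in every cKO pool.

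Angpt2 (ENSMUSG00000031465, chromosome 8, 18690263 to 18741562, minus strand) encodes a ligand of the Tie2 receptor that destabilises vessels, and it had the largest decrease of the 10 genes. It was rare, with 18, 3 and 3 counts in cKO pools 1, 2 and 3 and 22, 24 and 17 counts in wild type pools 1, 2 and 3. As levels these were 0.529, 0.25 and 0.303 CPM in the cKO pools and 1.06, 1.37 and 0.979 CPM in the wild type pools, without overlap. The log2 change was -1.49 (SE 0.386, edgeR adjusted p 0.0202). Summed over the pools, 24 counts in the cKO and 63 in the wild type gave a ratio of 0.378 with an exact 95% counting interval of 0.226 to 0.614, which covers counting error only. The call was lost without cKO pool 2 (edgeR adjusted p 0.0646), cKO pool 3 (0.0513) or wild type pool 2 (0.0806), and with DESeq2 (0.0515) or totals alone (0.0516).

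The partners of Angpt2 were not called. Tek, which encodes the Tie2 receptor, had 26.9, 29.1 and 35.5 CPM in the cKO pools and 30.4, 32.4 and 32.5 CPM in the wild type pools (log2 -0.06, edgeR adjusted p 0.706). Tie1, an orphan receptor of the same family, had 48.2, 69.0 and 63.4 CPM in the cKO pools and 54.0, 41.4 and 28.3 CPM in the wild type pools (log2 0.54, edgeR adjusted p 0.0989). Like the VEGF receptors, Tie1 was lowest in pool 1 within the cKO and highest in pool 1 within the wild type. Unlike them, it was highest in pool 2 within the cKO. Tie1 was called without wild type pool 1 (edgeR adjusted p 0.0281). Of 5 tested genes of the angiopoietin and Tie system 0 passed by edgeR or limma-voom, while DESeq2 called 2 higher. At an unadjusted edgeR p below 0.05 there were 3, all with a higher level in the cKO.

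Of the lymphatic surface protein genes, Pdpn rose and Lyve1 was not called. Pdpn (ENSMUSG00000028583, chromosome 4, 143267431 to 143299564, minus strand) encodes podoplanin, a mucin-type glycoprotein of lymphatic endothelium and of several epithelia and mesenchymal cells. It had 72.3, 73.5 and 69.5 CPM in cKO pools 1, 2 and 3, against 39.5, 51.4 and 59.1 CPM in wild type pools 1, 2 and 3. The cKO pools lay close together and above every wild type pool. Pdpn rose 1.44-fold (log2 0.52, SE 0.141, edgeR adjusted p 0.0237), with 71.7 ± 2.04 CPM in the cKO and 50.0 ± 9.91 CPM in wild type lenses (SD, n = 3 each). The call was lost without cKO pool 2 (edgeR adjusted p 0.0658) or wild type pool 2 (0.0956), at log2 changes of 0.50 and 0.51. The summed mesenchyme, pigment cell and surface ectoderm markers given above were also higher in every cKO pool than in every wild type pool, and their part in the result was not tested.

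Lyve1 (ENSMUSG00000030787, chromosome 7, 110850607 to 110863239, minus strand), a hyaluronan receptor gene of lymphatic endothelium and of some macrophages, was low and not called. It had 2.35, 3.17 and 3.73 CPM in the cKO pools and 3.48, 3.66 and 2.88 CPM in the wild type pools (log2 -0.15, SE 0.248, edgeR adjusted p 0.673), from 80, 38 and 37 counts in the cKO and 72, 64 and 50 counts in the wild type. The sign turned without cKO pool 1 (0.04). Of 10 macrophage markers 0 were called by edgeR and 1 by DESeq2, 1 passed an unadjusted edgeR p below 0.05, and their sum was 88.2, 122 and 120 CPM in the cKO pools, against 106, 76.0 and 48.1 CPM in the wild type pools. Without wild type pool 1, 4 of them were called higher, where 16.4% of all features were. The receptor gene Mrc1, which marks tissue macrophages and also lymphatic endothelium, had 12.6, 15.4 and 22.8 CPM in the cKO pools and 18.6, 15.9 and 9.21 CPM in the wild type pools (log2 0.20, edgeR adjusted p 0.62), with the sign turning without cKO pool 3 (-0.07) or wild type pool 3 (-0.07).

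Nr2f2 (ENSMUSG00000030551, chromosome 7, 70351944 to 70366735, minus strand) encodes the orphan nuclear receptor COUP-TFII, a factor of venous and lymphatic endothelium and of mesenchyme. Its level was 79.9, 75.7 and 81.7 CPM in cKO pools 1, 2 and 3, against 67.9, 38.0 and 43.5 CPM in wild type pools 1, 2 and 3. The cKO pools were above all wild type pools, with wild type pool 1 nearest to them. Nr2f2 rose 1.59-fold (log2 0.67, SE 0.195, edgeR adjusted p 0.0315), with 79.1 ± 3.07 CPM in the cKO and 49.8 ± 15.9 CPM in wild type lenses (SD, n = 3 each). The call was lost without cKO pool 1 (edgeR adjusted p 0.063), 2 (0.0621) or 3 (0.0684) and without wild type pool 2 (0.109) or 3 (0.114), and held without wild type pool 1 (log2 0.92, edgeR adjusted p 0.000752). In GENCODE the opposite-strand gene B130024G19Rik covers 7.46% of the 8625 exon bases of Nr2f2, and unstranded reads there could not be separated. The deposited RPKM of Nr2f2 implies a length of 4863 bases, so whether its counts include the shared bases is not known. The GENCODE exons of the other 9 genes share no base with another annotated gene.

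The paralogue Nr2f1, which encodes COUP-TFI, rose beside it, while the other relative read, Nr2f6, was not called (log2 -0.16, edgeR adjusted p 0.421). Nr2f1 had 104, 75.2 and 65.8 CPM in the cKO pools and 64.1, 44.0 and 49.7 CPM in the wild type pools, with no overlap (log2 0.64, SE 0.192, edgeR adjusted p 0.0347). The call was lost without cKO pool 1 (edgeR adjusted p 0.0863) or 2 (0.0572) or wild type pool 2 (0.141) or 3 (0.115). Nr2f1 is also a retinal gene, and the summed neural retina markers were 518, 347 and 328 CPM in the cKO pools and 326, 204 and 220 CPM in the wild type pools, in the same order within the cKO as Nr2f1. Within the cKO, Nr2f2 varied less than that sum, but in the wild type both were highest in pool 1 and lowest in pool 2. The summed mesenchyme, pigment cell and surface ectoderm markers given above had that wild type order too. Like Nr2f2, they were higher in every cKO pool than in every wild type pool. The part of these tissues in the result was not tested.

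**Figure D4:**
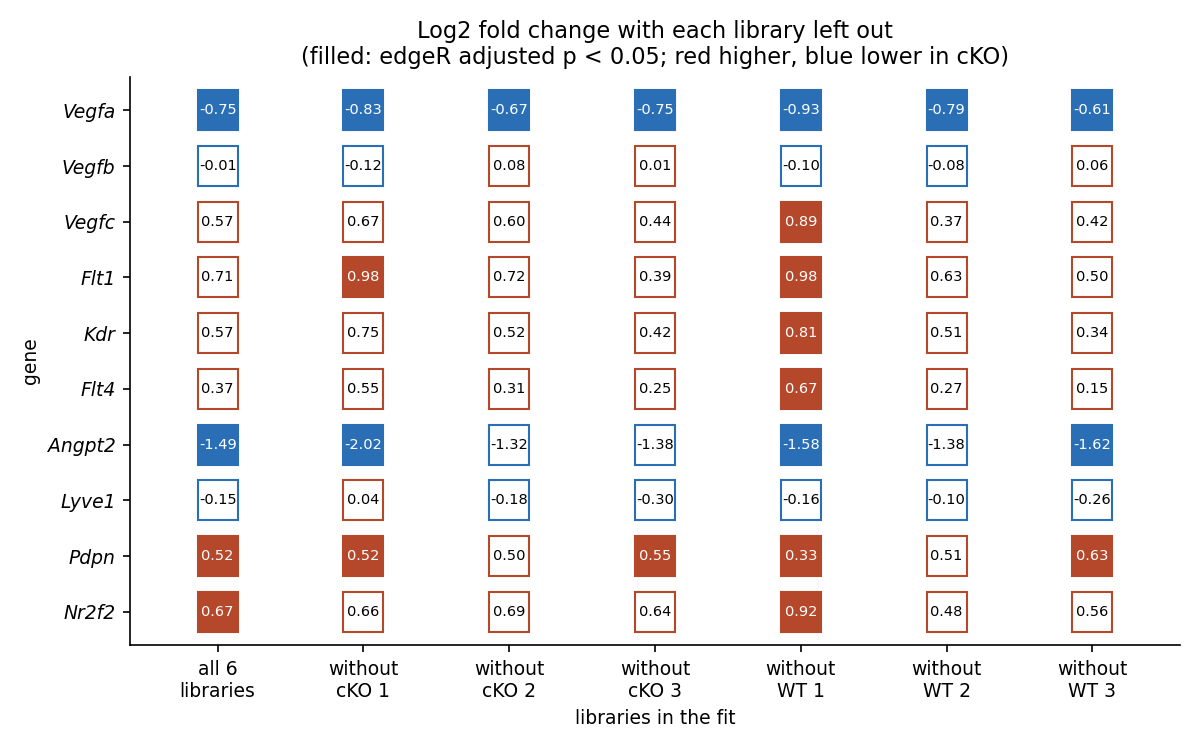
Log2 fold change (cKO minus wild type) of each of the 10 genes with all 6 pools and with each pool left out, filled where the edgeR adjusted p was below 0.05. Vegfa is filled in every column, and the column without wild type pool 1 has the most filled squares, 8 of 10.

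Counted over the 10 genes, leaving out single pools moved the number called between 1 and 8. It was 1 without cKO pool 2 or wild type pool 2, in both cases Vegfa, and 2 without cKO pool 3. The share called over all features also fell, to 23.1% without cKO pool 2, 15.5% without wild type pool 2 and 26.1% without cKO pool 3. The number reached 8 (6 higher and 2 lower in the cKO) once wild type pool 1 was left out, where 36.4% of all features were called, 16.4% higher and 20% lower. Without both cKO pool 3 and wild type pool 1, a choice made after seeing the data, it was 6, with 4 higher and 2 lower. In that fit 37.3% of all features were called.

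Other genes of VEGF signalling gave 3 calls among 9 tested, 2 higher and 1 lower, with a median log2 change of 0.61, beside 15.9% of all features called higher and 16.8% lower. Ccbe1, which encodes a matrix protein that promotes the maturation of VEGF-C, had 21.5, 26.2 and 25.3 CPM in the cKO pools, against 32.6, 47.2 and 47.2 CPM in the wild type pools. All cKO pools were below all wild type pools, and Ccbe1 fell (log2 -0.80, SE 0.162, edgeR adjusted p 0.00739), with calls whichever pool was left out. Thbs1, the gene of the vessel growth inhibitor thrombospondin 1, had 92.4, 109 and 129 CPM in the cKO pools and 61.9, 78.4 and 76.3 CPM in the wild type pools (log2 0.61, SE 0.144, edgeR adjusted p 0.0143). Thbs1 rose with no overlap, and its adjusted p was 0.0504 without wild type pool 3. Vash1, which encodes vasohibin, an inhibitor made by endothelium, had 32.4, 51.9 and 62.1 CPM in the cKO pools and 32.9, 26.6 and 19.8 CPM in the wild type pools. With cKO pool 1 just below wild type pool 1, Vash1 rose (log2 0.87, SE 0.255, edgeR adjusted p 0.0314), a call lost without cKO pool 2 (0.0785) or 3 (0.0879) or wild type pool 2 (0.103) or 3 (0.111) and with limma-voom (0.0505). Without wild type pool 3 only Ccbe1 was called, and without cKO pool 1 there were 5 calls, 4 higher and 1 lower. Over all features, 17% were called without wild type pool 3 and 31% without cKO pool 1.

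The other partners of the receptors did not pass. The co-receptor gene Nrp1 had 67.4, 91.1 and 97.8 CPM in the cKO pools and 83.1, 67.5 and 46.4 CPM in the wild type pools (log2 0.37, edgeR adjusted p 0.206). Nrp2, the co-receptor gene of VEGF-C signalling, had 22.6, 29.3 and 71.3 CPM in the cKO pools and 32.5, 17.9 and 9.96 CPM in the wild type pools (log2 1.00, edgeR adjusted p 0.149). Its highest value was in cKO pool 3, where the mesenchyme sum was also highest. Pgf, the placental growth factor gene, had 5.23, 3.92 and 6.66 CPM in the cKO pools and 2.95, 4.29 and 4.09 CPM in the wild type pools (log2 0.48, edgeR adjusted p 0.175). Figf, the gene of VEGF-D, had at most 1.32 CPM in any pool (log2 -0.59, edgeR adjusted p 0.409).

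**Figure D5:**
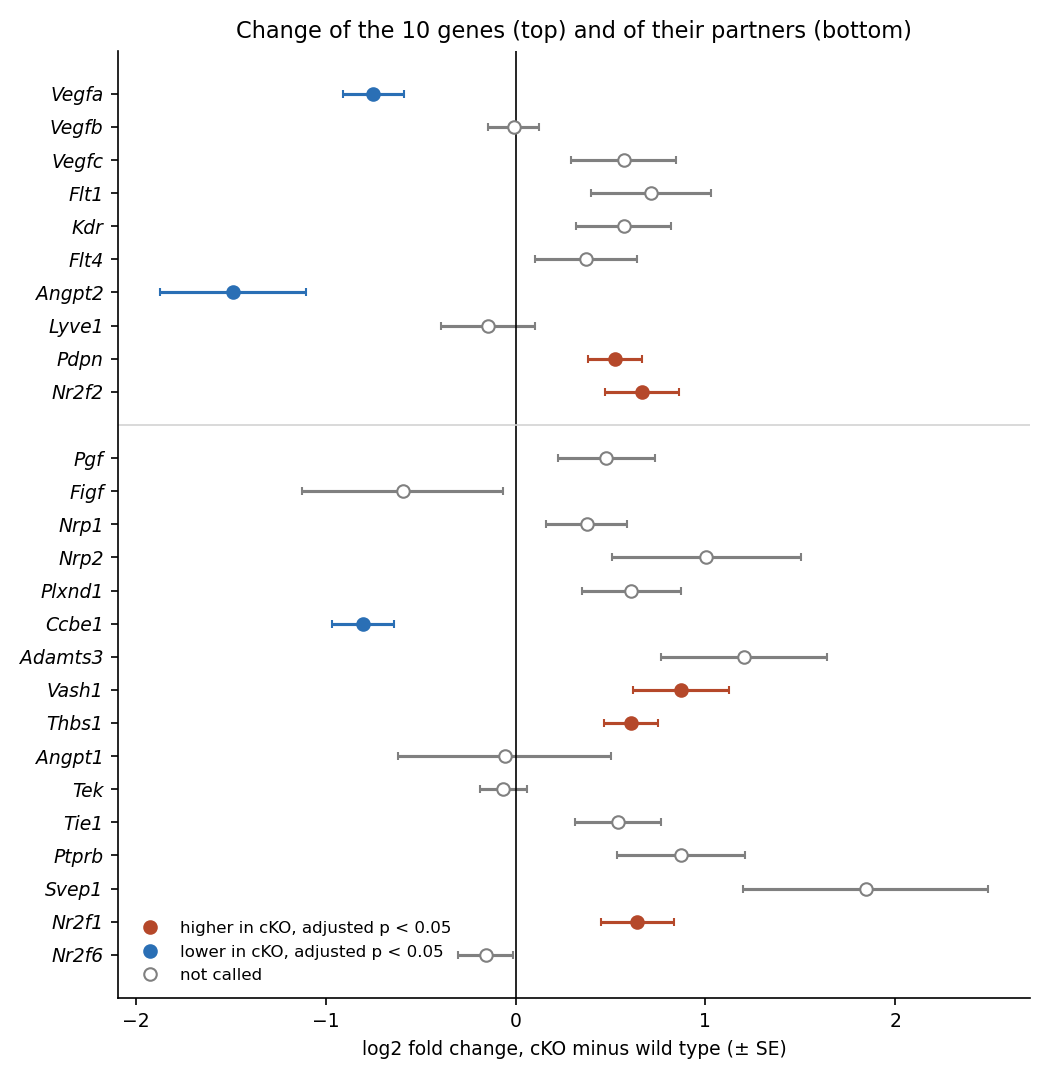
Log2 fold change ± SE (cKO minus wild type) of the 10 genes above the grey line and of their partners below it, filled where the edgeR adjusted p was below 0.05. Vegfa, Angpt2 and Ccbe1 lie left of 0, and Pdpn, Nr2f2, Vash1, Thbs1 and Nr2f1 lie right of it.

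Vegfa is a target of hypoxia-inducible factor (HIF), and genes of oxygen sensing and HIF targets were read beside it. Of 14 tested, 5 fell and 0 rose by edgeR, with a median log2 change of -0.22, where 16.8% of all features fell. At an unadjusted edgeR p below 0.05 there were 6, all lower in the cKO. Ndrg1, a hypoxia-induced gene also tied to differentiation, had 1.82, 3.59 and 6.46 CPM in the cKO pools, against 19.2, 51.2 and 60.3 CPM in the wild type pools, and fell 12.1-fold (log2 -3.60, SE 0.536, edgeR adjusted p 0.00188). Bnip3, a mitophagy gene, fell with a log2 change of -0.75 (edgeR adjusted p 0.0207), the glycolytic gene Pgk1 with -0.79 (0.01) and the glycolytic gene Ldha with -0.34 (0.0434). Pgk1 and Ldha have many processed pseudogene copies, so their counts are uncertain. Hif1a itself had 44.0, 45.3 and 52.4 CPM in the cKO pools and 50.4, 55.9 and 52.4 CPM in the wild type pools and was not called (log2 -0.17, edgeR adjusted p 0.23). The call of Bnip3 was lost without cKO pool 1 (edgeR adjusted p 0.0513) or 2 (0.0665) or wild type pool 2 (0.0802) or 3 (0.0663). That of Ldha was lost when any pool other than wild type pool 1 was left out (edgeR adjusted p 0.0599 to 0.140). The number that fell was 3, beside 1 that rose, without cKO pool 1. It was 2 without cKO pool 2 or wild type pool 2 or 3, and 3 with totals taken without crystallins or with upper quartile scaling. With totals alone 4 were called higher and 1 lower, where 44.6% of all features were called, and the signs of Ldha (0.02) and Hif1a (0.18) turned.

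Genes of lymphatic endothelium gave 3 calls among 12 tested, 1 higher and 2 lower, with a median log2 change of 0.06, where 32.6% of all features were called, so the share was not above that over all features. Foxc2, a valve factor gene, was listed at 0 counts in every pool, and the lymphatic chemokine gene Ccl21a had at most 0.0294 CPM. Stab2, a hyaluronan receptor gene, had at most 0.403 CPM. Other genes of the list were present and not called: Stab1, a scavenger receptor gene also expressed by macrophages, averaged 110 ± 17 CPM in the cKO and 124 ± 3.12 CPM in wild type lenses (SD, n = 3 each), and Calcrl, Sox18 and Mmrn1 had 19.1, 14.3 and 9.80 CPM in the cKO on average, against 12.9, 9.04 and 9.80 CPM in the wild type. Reln, which encodes the secreted protein reelin, had 88.4, 96.2 and 147 CPM in the cKO pools, against 54.6, 35.2 and 42.7 CPM in the wild type pools, and rose 2.49-fold (log2 1.32, SE 0.22, edgeR adjusted p 0.00321). Fgfr3, whose transcription Prox1 controls in lymphatic endothelial cells, had 25.5, 35.8 and 35.9 CPM in the cKO pools and 209, 328 and 356 CPM in the wild type pools (log2 -3.21, edgeR adjusted p 0.000104). Each wild type value was above the wild type means of Stab1, Calcrl, Sox18 and Mmrn1 in CPM. These levels are not divided by gene length, so they do not rank the genes. Of 6 lens markers, 5 also fell, and the part of lens cells in the Fgfr3 values was not tested. The calls of Reln and Fgfr3 held whichever pool was left out. Without wild type pool 1 the list gave 5 calls, 3 higher and 2 lower, where 36.4% of all features were called.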

How the data were processed

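RNA-seq libraries from poly-A selected RNA (TruSeq v2, a kit that does not mark strand, with single-end reads of 51 bases, per the labels' protocols) were read from deposited files that list raw counts with the CPM and RPKM made from them. The authors scaled the deposited CPM to library size and the deposited RPKM also to gene length, per the file headers, and per the submitters' processing notes edgeR and GRCm38 were used. Neither aligner nor annotation release is given in the sources used here. All sample columns were used. Of 41128 features, 26 whose deposited count and CPM disagreed (tolerance 1e-06) were left out. The others were filtered (filterByExpr, minimum count 10), which kept 14271, scaled by TMM and tested for genotype with the quasi-likelihood test of edgeR 4.0.16 in R 4.3.3, with Benjamini-Hochberg adjustment over all features tested and a threshold of 0.05. Log2 changes are cKO minus wild type, and SE is the log2 change over the square root of its F value. DESeq2 1.42.0, limma-voom (limma 3.58.1), other scalings and filters, a replicate block and each library left out were tried. The scripts were tested on simulated data. Gene coordinates are those of GENCODE on GRCm38, and promoter sequences those of RefSeq (GRCm38.p6).

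The members and gene lists were chosen with earlier results of these data known. Named are Prox1, the 10 members, up to 4 called genes per list with the largest log2 changes, and fixed direct partners and cell markers, apart from 1 called gene that is not reported here. Counts at the depth of these libraries set a floor, at 3 counts, of 0.0882 to 0.303 CPM in the cKO and 0.145 to 0.173 CPM in the wild type, for counting error only. Replicate libraries differed by more than sampling noise.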

Additional observations from a re-analysis of the deposited data

How the results depend on the processing

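Over all features, 4659 calls became 2267 to 5317 with 1 pool left out, the lowest without wild type pool 2 (2267) and wild type pool 3 (2475), and the members called, 4 with all pools, numbered between 1 and 8. Under the filter of 1 CPM in 3 pools Angpt2 was not tested. Lists with 1 pool left out ranged from 1 to 5 calls (VEGF partners, 3 with all pools), 0 to 2 (angiopoietin and Tie, 0), 2 to 6 (HIF, 5), 2 to 5 (lymphatic, 3), 0 to 1 (COUP-TF relatives, 1), 0 to 9 (endothelium, 1), 0 to 5 (pericytes, 3), 0 to 4 (macrophages, 0), 0 to 6 (mesenchyme, 4), 0 to 3 (erythroid, 3), 0 to 4 (neural retina, 2), 3 to 6 (pigment cells, 5) and 2 to 6 (surface ectoderm, 6). DESeq2 called 5 VEGF partners, 2 angiopoietin and Tie genes, 2 endothelial, 5 pericyte and 1 macrophage marker. With totals alone these were 8, 3, 9, 6 and 5, with 6 lymphatic genes, 8 mesenchyme and 4 retina markers, and the cKO to wild type ratio of summed lens markers was 0.216 in place of 0.167. Totals without crystallins gave 2 angiopoietin and Tie genes, 3 HIF genes, 1 macrophage and 7 mesenchyme markers, and upper quartile scaling 3 HIF genes. With no filter on low counts there were 5 VEGF partners, 3 angiopoietin and Tie genes, 2 endothelial, 1 macrophage and 7 mesenchyme markers. Without both cKO pool 3 and wild type pool 1, a choice made after seeing the data, there were 5334 calls over all features, 3 angiopoietin and Tie, 8 HIF and 6 lymphatic genes and 9 endothelial, 3 macrophage and 4 retina markers, and Tek had a log2 change of -0.24. With totals alone Prox1 was no longer called (log2 -0.34). Signs turned for Vegfb with limma-voom (0.011), upper quartile scaling (0.040), totals alone (0.35) and totals without crystallins (0.085), and with 1 pool left out Vegfb ranged from -0.123 to 0.076. They turned with totals alone for Lyve1 (0.20), Angpt1 (0.27), Tek (0.29), Hif1a (0.18) and Ldha (0.015), and with totals without crystallins for Angpt1 (0.0075) and Tek (0.021). With 1 pool left out Lyve1 ranged from -0.30 to 0.042, Figf from -1.01 to 0.030, Angpt1 from -1.19 to 0.38, Tek from -0.18 to 0.021 and Mrc1 from -0.066 to 0.38. Same-numbered pools did not all deviate together (correlations of -0.0276, 0.254 and 0.111), so the numbers are not taken as pairs, and not every pool correlated best with its own number; a replicate block gave 4176 calls, 4 members, 2 VEGF partners (Vash1 was lost, edgeR adjusted p 0.0791), 3 HIF genes (Ldha was lost, 0.0599) and 4 retina markers, and Foxe3 (0.0528) and Cldn5 (0.0560) were lost. The cause of these changes was not tested. Depth limits Angpt2 most, with 3 counts in cKO pools 2 and 3.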

Other observations

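Angpt1, which encodes the vessel-stabilising ligand of the Tie2 receptor, had 3.20, 4.26 and 17.7 CPM in cKO pools 1, 2 and 3, against 9.27, 8.59 and 7.14 CPM in wild type pools 1, 2 and 3. With all pools its log2 change was -0.06 (edgeR adjusted p 0.946). Without cKO pool 3 it was -1.19 and was called (edgeR adjusted p 0.00908). Svep1, the gene of a matrix protein that binds the Tie1 receptor and that was picked after its values were seen, had 3.62, 4.26 and 18.2 CPM in the cKO pools and 3.38, 1.26 and 2.30 CPM in the wild type pools (log2 1.84, edgeR adjusted p 0.0572). Both genes were highest in the cKO pool with the highest periocular mesenchyme sum, whose part in these values was not tested. The ratio of Vegfa to Kdr, also chosen after seeing the values, was 0.980, 0.550 and 0.557 in the cKO pools and 0.972, 1.71 and 2.90 in the wild type pools, and the pools numbered 1 of the genotypes were nearly equal (exact two-sided permutation p = 0.2).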
